A study of Laccaria bicolor with 37 samples.

Results

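Gene model 331747 of the ectomycorrhizal fungus Laccaria bicolor encodes a putative ammonium transporter that the study named an Rh-like ammonium transporter. It was taken by its identifier and is 1 of the 23130 gene models for which each library gives a read count and an RPKM value (reads divided by transcript length and library total). The reference gene table of assembly V1.0 gives the locus tag with the same number the symbol LbAMT2.2, and the RPKM values imply a transcript of 1239 bases. This symbol follows the Amt naming, and a second gene model, 484007, also carries the name Rh-like. The study speaks of Rh-like transporters in the plural, so both may bear the name. Whether the identifier printed with it was the one meant could not be settled, and all values here stand for the identifier 331747. Its transcripts were scarce in free-living and extramatrical mycelium and in young root contacts. They were about 6 times as abundant in ectomycorrhizal samples at 14 days post-inoculation (dpi) as in free-living mycelium of the same day. At 21 dpi the level in ectomycorrhizal samples was again within its range of 3 dpi.

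The study followed L. bicolor S238N on plates with rooted cuttings of the poplar Populus tremula x alba 717-1B4. RNA-seq libraries were available for 37 samples in 13 groups. Free-living mycelium (FLM) came from control plates with no plant, on day 0 and on the 4 days when the co-cultures were sampled (3, 7, 14 and 21 dpi). Co-culture plates gave the other groups. A line 0.5 cm from the roots divided each co-culture: the root side, with its roots, was collected as EcM, and the hyphae on the far side as extramatrical mycelium (ExM). All plates held P20, a sugar-reduced agar medium, and cellophane, and no mutant or added treatment was compared. There were 3 biological replicates in each group, except 2 for FLM at 0 dpi and 2 for ExM at 14 dpi. EcM is thus a dissected zone whose share of mantle, hyphae between root cells and loose mycelium was not measured. In such bulk samples a change in the share of one kind of hypha cannot be told apart from a change in RNA per cell. EcM samples also held poplar root, and the study's methods add polyethylene glycol to the extraction buffer only for samples with roots. These differences from FLM and ExM cannot be told apart from the root zone itself.

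Ammonium transporters of the Amt/Mep/Rh family are membrane proteins that carry ammonium or ammonia across the plasma membrane. Baker's yeast, Saccharomyces cerevisiae, has several such permeases, and one of them, Mep2, is also known as a receptor through which nitrogen-starved cells switch to growing as filaments. Inside the fungal cell, glutamine synthetase and glutamate dehydrogenase bind ammonium into amino acids. In ectomycorrhiza, fungal hyphae take up nitrogen from the medium or soil and pass a part of it to the root, so uptake, storage and release of ammonium all take place in the same organism.

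Library totals lay between 13.82 and 36.82 M counts (M, megacounts; median 20.68 M), and the 3 EcM libraries of 14 dpi were not among the deepest. At these depths 3 counts, taken here as the floor below which a level was not measurable, corresponded to 0.0764 to 0.243 CPM (counts per megacount, scaled with TMM factors). Floors and the intervals of counts and of pooled counts cover counting error only, and reads carry no molecular identifiers. The intervals of log2 fold changes come from edgeR standard errors, which also hold the spread between libraries. As a limited check of the labels, the transcripts of 4 genes that the study describes as induced in EcM were summed. The study describes their induction from these same libraries, so the sum is not independent evidence for the labels. The 4 were the small secreted proteins MiSSP17 (332226) and MiSSP8 (388224), a hydrophobin (241509) and a protein with a gti1/pac2 domain (603166). Their summed level was 37.3 to 59.5 CPM in EcM at 14 dpi and 15.8 to 35 CPM at 21 dpi, against 0.9 to 1.11 CPM in FLM at 14 dpi and 2.41 to 2.99 CPM at 21 dpi.

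At 14 dpi, gene model 331747 had 41, 66 and 55 counts in the 3 EcM libraries, or 1.79, 5 and 3.14 CPM. FLM of the same day had 11, 19 and 9 counts, or 0.476, 0.57 and 0.416 CPM. ExM had 11 and 4 counts, or 0.607 and 0.214 CPM. All 3 EcM libraries lay above every FLM and ExM library of that day. They also differed among themselves more than the FLM libraries did, and the 95% Poisson intervals of their counts were 29.4 to 55.6, 51 to 84 and 41.4 to 71.6. The mean was 3.31 ± 1.61 CPM (SD, n = 3) in EcM, 0.487 ± 0.0774 (n = 3) in FLM and 0.41 ± 0.277 (n = 2) in ExM.

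**Figure D1:**
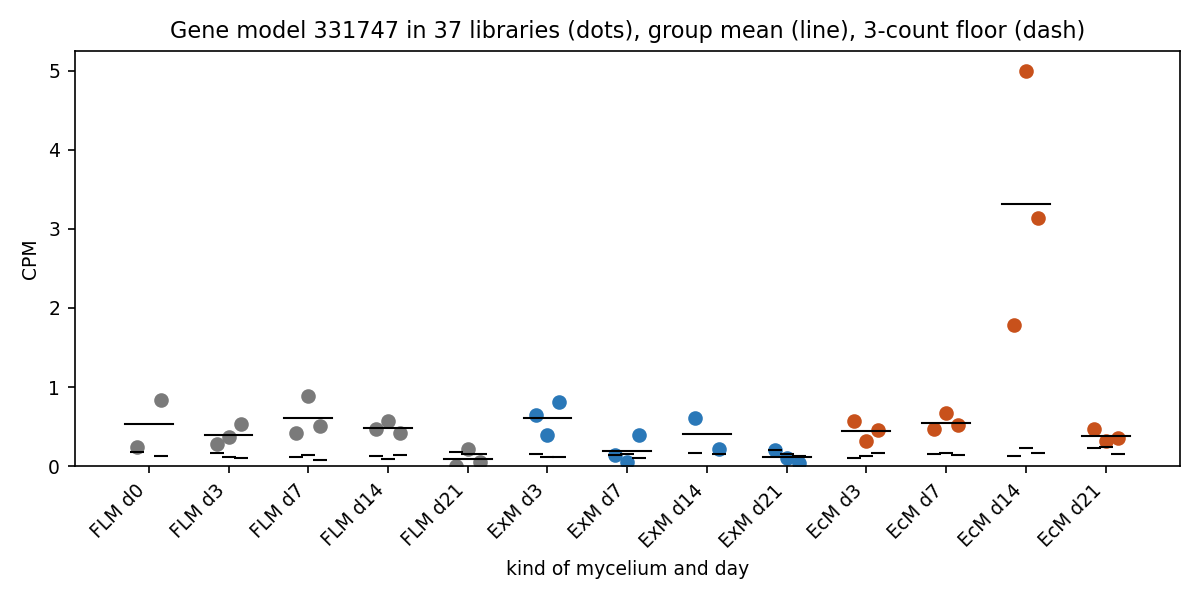
CPM of gene model 331747 in each of the 37 libraries (dots, y axis) by kind of mycelium and day (x axis, d = dpi), with the group mean as a line and the level of 3 counts in each library as a short dash. The EcM libraries of 14 dpi, at 1.79 to 5 CPM, sit above the other 34 libraries, whose highest value is 0.892 CPM.

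The lowest EcM library of 14 dpi, at 1.79 CPM, was 2.01 times the highest of the other 34 libraries, an FLM library of 7 dpi at 0.892 CPM. Of the 15533 gene models tested, 163 (1.05%) had all 3 EcM libraries of 14 dpi above every other library, and 18 (0.116%) had a gap at least as wide as 2 times. Both measures were chosen after the values were seen and carry no test. Ordered by mean CPM, EcM at 14 dpi came first at 3.31, followed by ExM at 3 dpi (0.616), FLM at 7 dpi (0.606), EcM at 7 dpi (0.552) and FLM at 0 dpi (0.538). FLM at 14 dpi (0.487), EcM at 3 dpi (0.447), ExM at 14 dpi (0.41), FLM at 3 dpi (0.394) and EcM at 21 dpi (0.381) made up the middle. The lowest means were those of ExM at 7 dpi (0.195), ExM at 21 dpi (0.117) and FLM at 21 dpi (0.0883). Below the first place, the libraries of every group overlapped those of the next group in the order. Between the first place and the second they did not, and the log2 fold change there was 2.39 ± 0.44 (SE; edgeR, adjusted p = 2.9e-05). The pair was taken from an order made on these same values, which this p-value does not account for.

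Per unit of transcript length, gene model 331747 remained a minor transcript even at its peak. Its mean was 2.59 ± 1.21 RPKM (SD, n = 3) in EcM at 14 dpi, where the median of the tested gene models was 13.3 RPKM, and 18.3% of them had a lower level. In the other 12 groups its mean lay between 0.0727 RPKM (FLM, 21 dpi) and 0.519 RPKM (FLM, 7 dpi). Only 0.418% of the tested gene models were lower in FLM at 21 dpi, and 3.87% in ExM at 3 dpi, the highest such share outside EcM at 14 dpi.

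The first question the design poses is whether the level near the root differed from that of mycelium grown without a plant. The test was edgeR's quasi-likelihood test over all 37 libraries, adjusted by the Benjamini-Hochberg method over the 15533 gene models, with a call at an adjusted p under 0.05 and a log2 fold change of at least 1. At 14 dpi the gene rose in EcM against FLM, by 2.70 ± 0.44 on the log2 scale (SE; adjusted p = 2.1e-05). Higher calls made up 4.03% of the tested gene models in that comparison, and calls in either direction 6.8%. Libraries that did not overlap, with EcM on top, were found for 26.5% of the tested gene models. Among the called rises, that of 331747 was the 135th in size. The pooled counts, 162 against 39, gave a ratio of 6.05 with a 95% counting interval of 4.24 to 8.82. The study named this gene for its behaviour in EcM in these same libraries, so the test is not independent evidence of the rise.

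At the early time points no such difference was called. At 3 dpi, EcM had 16, 7 and 8 counts and FLM 5, 9 and 16. At 7 dpi, EcM had 9, 12 and 11 counts and FLM 11, 19 and 20. The ranges overlapped on both days once scaled, at 0.317 to 0.57 CPM against 0.279 to 0.532 CPM and at 0.468 to 0.673 CPM against 0.417 to 0.892 CPM. The log2 fold change was 0.15 (95% interval -0.91 to 1.21; edgeR, adjusted p = 0.92) at 3 dpi and -0.10 (-1.09 to 0.89; adjusted p = 0.93) at 7 dpi. These intervals leave room for changes of about 2-fold either way, and 1.93% and 3.92% of the tested gene models were called on these days. Either sign turned when 1 library was left out. On day 3 this was EcM replicate 1 (-0.12) or FLM replicate 1 (-0.04), and on day 7 it was FLM replicate 2 (0.20).

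At 21 dpi the transcript was close to the floor of 3 counts in EcM, and at or below it in most FLM and ExM libraries. EcM had 6, 4 and 7 counts, or 0.465, 0.324 and 0.353 CPM. FLM had 0, 4 and 1 counts, or 0, 0.214 and 0.0507 CPM, and ExM had 3, 2 and 1 counts, or 0.201, 0.105 and 0.0435 CPM. Each EcM library was above each FLM and ExM library, as was the case for 21.6% of the tested gene models against FLM and 24.2% against ExM. The pooled ratio was 4.12 (17 against 5 counts, 95% counting interval 1.46 to 14.3) against FLM and 3.58 (17 against 6 counts, 1.35 to 11.1) against ExM. Neither difference passed the test, with adjusted p = 0.06 against FLM and 0.087 against ExM in edgeR, in comparisons that called 5.63% and 4.39% of the gene models. The comparison with FLM rested on single libraries: without FLM replicate 2, which held 4 of its 5 counts, the log2 fold change went from 1.98 ± 0.83 to 3.52 ± 1.16 (adjusted p = 0.017).

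**Figure D2:**
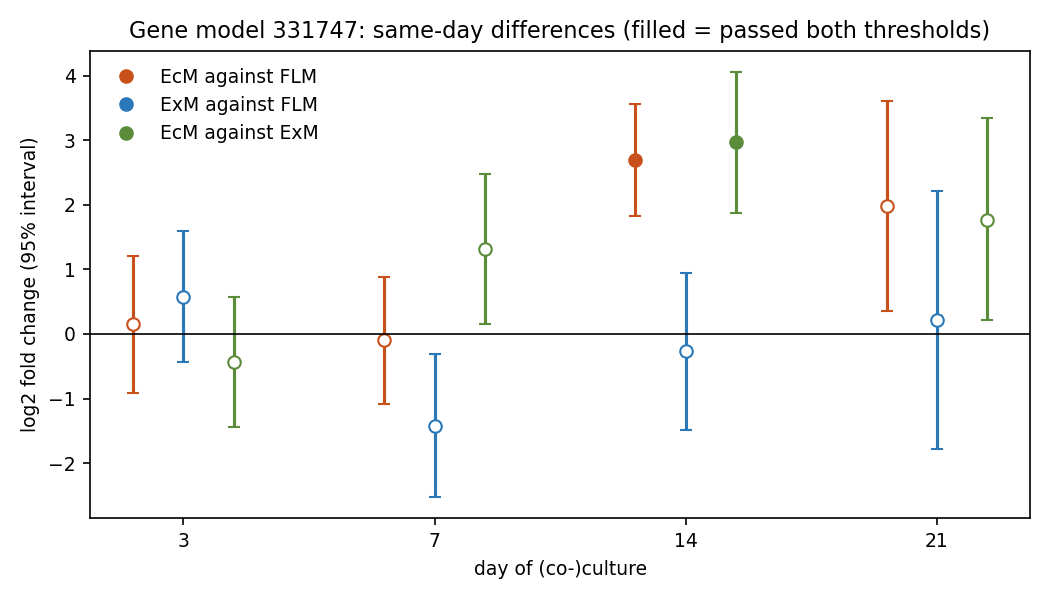
Log2 fold change of gene model 331747 (y axis) between kinds of mycelium sampled on the same day (x axis, day of culture), with 95% intervals from the standard errors that are not adjusted for multiple tests. Filled points passed the adjusted p and fold change thresholds, which only EcM against FLM (2.70) and EcM against ExM (2.97) at 14 dpi did.

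The second question is whether the change was shared by the mycelium of the same plates that lay away from the root. ExM had 12, 10 and 20 counts at 3 dpi and 3, 1 and 12 counts at 7 dpi. Against FLM, the log2 fold change in ExM was 0.58 ± 0.52, -1.42 ± 0.56, -0.27 ± 0.62 and 0.21 ± 1.02 on the 4 sampling days in order. None passed the edgeR test (adjusted p between 0.15 and 1), in comparisons that called 1.52%, 2.02%, 0.0451% and 1.65% of the tested gene models. The lowest of these p-values belonged to 7 dpi, when all 3 ExM libraries (0.0519 to 0.393 CPM) were below all 3 FLM libraries (0.417 to 0.892 CPM), as in 14% of the gene models. At 14 and 21 dpi the sign of the ExM difference turned when 1 library was left out, to 0.29 without ExM replicate 2 of 14 dpi, and to -0.32 without ExM replicate 1, -0.28 without FLM replicate 1 or -0.09 without FLM replicate 3 of 21 dpi.

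The direct comparison of EcM with ExM gave the same day as the only call. At 14 dpi the log2 fold change was 2.97 ± 0.56 (SE; edgeR, adjusted p = 0.00024), and 3.02% of the tested gene models were called higher. In 26.2% of the gene models every EcM library was above both ExM libraries, as it was here. At 3 dpi it was -0.43 ± 0.52 (adjusted p = 1), and at 7 dpi 1.32 ± 0.60 (adjusted p = 0.45), although the EcM libraries of 7 dpi (0.468 to 0.673 CPM) did not overlap those of ExM, an arrangement seen in 6.75% of the gene models. Calls made up 0.0386% and 0.303% of the gene models on these 2 days. With ExM at 14 dpi represented by 2 libraries, the value at 14 dpi moved to 3.90 without its replicate 1 (adjusted p = 0.0018) and stayed called without any one library.

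Followed over time in EcM, the gene rose and then fell. It rose from 7 to 14 dpi by 2.55 ± 0.45 on the log2 scale (SE; edgeR, adjusted p = 7.3e-05), while 2.48% of the tested gene models were called higher. From 14 to 21 dpi it fell by 3.08 on the log2 scale (SE 0.50; adjusted p = 7.5e-05), and lower calls made up 1.89% of the gene models. The pooled ratio of 21 to 14 dpi was 0.125 (17 against 162 counts, 95% counting interval 0.071 to 0.206). Between 3 and 7 dpi the log2 fold change was 0.27 ± 0.54 (adjusted p = 0.77), with 3.82% of the gene models called. EcM at 14 dpi was also above each of the other 12 groups taken singly, by log2 fold changes of 2.39 to 5.06 (adjusted p of 0.00024 or lower in each), in comparisons that share the EcM libraries and called 1.89% to 7.53% of the gene models higher. That group was singled out as the highest in these same values, which the p-values do not account for.

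Without a plant, no step up to 14 dpi was called, and the transcript was lower at 21 dpi. FLM at 0 dpi had 4 and 20 counts (0.245 and 0.831 CPM), a wider spread than that of all FLM libraries of 3 and 14 dpi together. The steps from 0 to 3, 3 to 7 and 7 to 14 dpi had log2 fold changes of -0.48 ± 0.59, 0.53 ± 0.51 and -0.25 ± 0.49 (edgeR, adjusted p of 0.88, 0.59 and 0.75), where 0.0451%, 1.42% and 4.41% of the gene models were called. From 14 to 21 dpi it fell by 2.36 on the log2 scale (SE 0.74; adjusted p = 0.014). Lower calls made up 3.46% of the gene models in that step, and in 22.1% every library of 21 dpi was below every library of 14 dpi. This call rested on libraries with 0, 4 and 1 counts, of which the first and the last were below the floor. It was lost without FLM replicate 1 (-1.87, adjusted p = 0.079) or replicate 3 (-2.06, adjusted p = 0.075) of 21 dpi. Without replicate 2 of 21 dpi the value was -3.90 (adjusted p = 0.004).

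In ExM the corresponding steps were not called. The log2 fold change was -1.47 ± 0.57 from 3 to 7 dpi (edgeR, adjusted p = 0.063), 0.89 ± 0.70 from 7 to 14 dpi (adjusted p = 0.4) and -1.88 ± 0.83 from 14 to 21 dpi (adjusted p = 0.12). Calls made up 3.14%, 4.05% and 3.88% of the tested gene models in these steps. The first step passed without ExM replicate 2 of 3 dpi (-1.71, adjusted p = 0.048) or ExM replicate 3 of 7 dpi (-2.57, adjusted p = 0.016), the library with 12 of the 16 counts of its group. The second moved to -0.04 without ExM replicate 1 of 14 dpi. All 3 kinds of mycelium thus had lower means at 21 than at 14 dpi, and the fall passed the test in EcM and FLM.

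Whether the difference between EcM and FLM itself changed between days was tested as an interaction. It was larger at 14 than at 7 dpi by 2.80 ± 0.67 on the log2 scale (edgeR, adjusted p = 0.0065), in a test that called 1.62% of the gene models in that direction. Averaged over 14 and 21 dpi it exceeded the average of 3 and 7 dpi by 2.32 ± 0.60 (adjusted p = 0.0043; 1.85% called in that direction). The change of the EcM and FLM difference from 14 to 21 dpi was -0.72 ± 1.13 (95% interval -2.94 to 1.5; adjusted p = 0.78; 1.58% called in either direction), an interval that spans both a decline and a rise. Averaged over the same days, the EcM and ExM difference was larger late than early by 1.93 ± 0.64 (adjusted p = 0.031; 1.3% called in that direction). This call was not kept in 6 of the 23 fits without 1 library. The late averages include 21 dpi, when the EcM mean (0.381 CPM) was below those of 3 and 7 dpi (0.447 and 0.552 CPM). ExM at 21 dpi had a mean of 0.117 CPM.

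L. bicolor has further members of this transporter family, and 6 of them were measured: 188643 (LbAMT1.1a), 255304 (LbAMT1.1b), 190906 (LbAMT1.2), 300932 (LbAMT2.1), 313221 (LbAMT2.3c) and 484007, which the study also calls Rh-like. LbAMT2.3a and LbAMT2.3b of the gene table were not analysed here. All 7 passed the filter on low counts. In EcM against FLM at 14 dpi, 4 of the 7 were called higher, where higher calls made up 4.03% of all tested gene models, and the other 3 had log2 fold changes of 0.07 to 0.30. The median of the 7 was 1.87, against -0.01 over all tested gene models. The list holds genes that the study picked from these libraries, so this count is not independent evidence. Beside 331747 (2.70 ± 0.44), the rises were 4.43 ± 0.25 for 313221 (edgeR, adjusted p = 9.2e-14), 2.06 ± 0.17 for 484007 (adjusted p = 1.1e-10) and 1.87 ± 0.18 for 190906 (adjusted p = 9.4e-09).

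The 313221 transcript had the largest rise of the family in EcM against FLM at 14 dpi. It had 1545, 1556 and 1544 counts in EcM at 14 dpi, or 44.6, 74.5 and 56.6 RPKM, and 102, 143 and 85 counts in FLM, or 3.15, 3.06 and 2.81 RPKM. Unlike 331747, it was called higher in EcM than in FLM on each day, with log2 fold changes of 1.29 ± 0.25 on day 3, 2.13 ± 0.24 on day 7 and 3.62 ± 0.27 on day 21. Its level in EcM at 21 dpi, 14.8 to 18.3 RPKM, was above its range at 7 dpi, 8.29 to 13.8 RPKM, whereas that of 331747, 0.225 to 0.334 RPKM, was below its own range at 7 dpi, 0.349 to 0.534 RPKM. Whether the courses of the 2 genes differ was not tested.

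The second gene model named Rh-like, 484007, was closer to 331747 in its level than 313221 was. Its 3 EcM libraries of 14 dpi had 175, 144 and 156 counts, or 5.14, 7.02 and 5.82 RPKM, and FLM had 62, 69 and 39 counts, or 1.95, 1.5 and 1.31 RPKM. Gene model 484007 rose from 7 to 14 dpi in EcM by 1.32 ± 0.17 on the log2 scale (edgeR, adjusted p = 6.4e-07). It fell by 1.04 from 14 to 21 dpi (SE 0.17; adjusted p = 6.4e-05). These 2 steps were 2.46 and -1.75 for 313221, nearer to the 2.55 and -3.08 of 331747. At 21 dpi it was still called higher in EcM than in FLM, with 1.66 ± 0.20 (adjusted p = 1.1e-07). In both Rh-like gene models, in 313221 and in LbAMT1.2, replicate 2 of EcM at 14 dpi had the highest RPKM and replicate 1 the lowest. The remaining family members did not have this order. All genes summed as a check of the labels, except the hydrophobin, had the same order in CPM. The order was thus not particular to the Rh-like gene models.

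**Figure D3:**
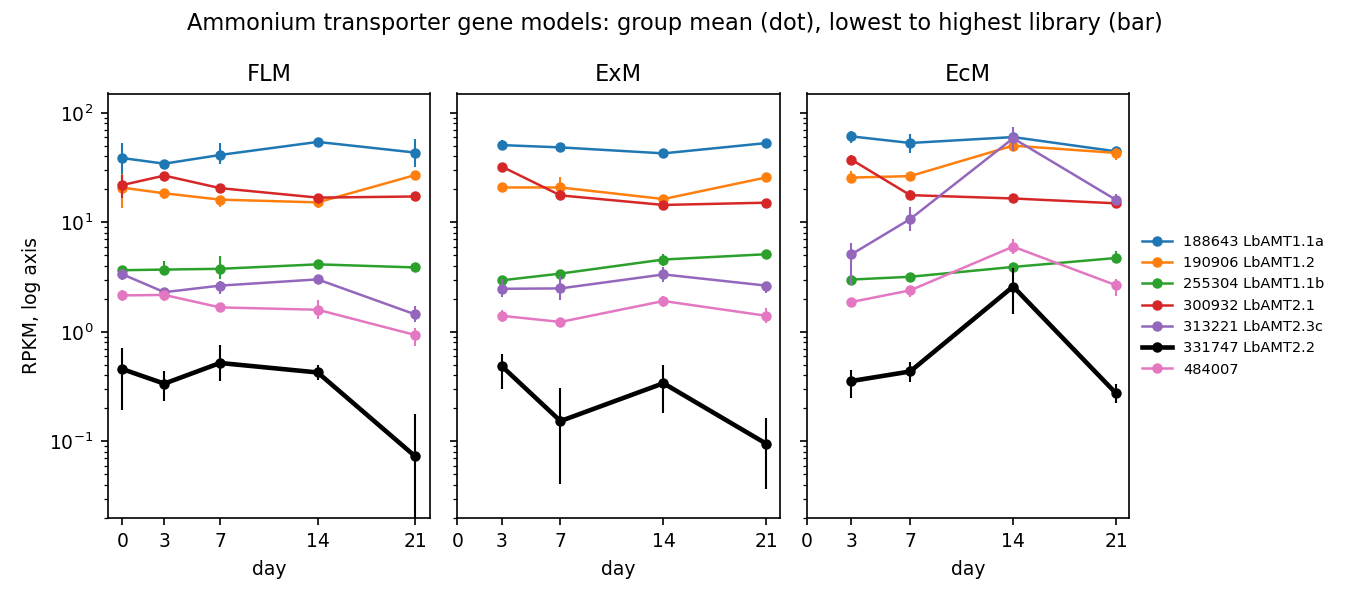
Mean RPKM (log axis) of the 7 measured ammonium transporter gene models by day in FLM, ExM and EcM, with bars from the lowest to the highest library. Gene model 331747 (black, thick) is the lowest of the family in all 13 groups, peaks at 2.59 RPKM in EcM at 14 dpi, and has 1 FLM library of 21 dpi at 0 that lies below the axis.

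Of the remaining 4 members, only LbAMT1.2 was called in EcM against FLM at 14 dpi. The LbAMT1.1a transcript was the most abundant of the family in FLM at 14 dpi and had a log2 fold change of 0.30 ± 0.20 in EcM against FLM (edgeR, adjusted p = 0.29). LbAMT1.1b and LbAMT2.1 had 0.07 ± 0.16 and 0.12 ± 0.12, and both signs turn with scaling by library totals (-0.08 and -0.03). LbAMT1.2 had a mean of 50.1 ± 3.14 RPKM in EcM at 14 dpi and 43 ± 5.35 RPKM at 21 dpi (SD, n = 3). Its log2 fold change from 14 to 21 dpi in EcM was -0.09 ± 0.18 (adjusted p = 0.79), at a time when 331747 fell by 3.08.

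Reads were placed on transcripts with several hits per read allowed, so reads from similar family members may have been shared, and the counts of 331747 are uncertain to that extent. For 100 counts of 313221 there were 3.49 counts of 331747 in EcM at 14 dpi (pooled; 2.65 to 4.24 by library), 3.34 at 7 dpi (3.17 to 3.46), 1.41 at 21 dpi (1.24 to 1.5) and 11.8 in FLM at 14 dpi (10.6 to 13.3). The ratio was thus alike in EcM at 7 and 14 dpi and lower in EcM at 21 dpi. For 100 counts of 484007 there were 34.1, 15, 8.5 and 22.9 counts of 331747 in these 4 groups. The part of shared reads in the result was not tested.

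Gene groups of nitrogen use that surround such a transporter were counted from lists built on the study's supplementary tables, which hold transcripts already selected in these libraries or in fruiting bodies, so their counts are no independent evidence. Of 9 gene models annotated for ammonium assimilation, 8 were tested and 1 rose in EcM against FLM at 14 dpi, beside 4.03% of all tested gene models. It was 309733, a glutamate dehydrogenase, with a log2 fold change of 1.23 ± 0.13 (edgeR, adjusted p = 1.9e-08), and the median of the 8 was 0.01 beside -0.01 for all tested gene models. The single gene model for outward ammonia transport, 295502 of the GPR1/FUN34/yaaH family, had 0.58 and was not called. Both gene models of nitrate use rose, the nitrate transporter 254042 (LbNrt) by 1.75 ± 0.24 (adjusted p = 2.6e-06) and the nitrite reductase 291348 by 1.58 ± 0.22 (adjusted p = 4.4e-06).

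Among transporters of organic nitrogen, 5 of 17 amino acid transporters and 2 of 7 oligopeptide transporters rose in the same comparison, and the others were not called, beside 4.03% of all tested gene models called higher. The largest rises were those of the oligopeptide transporter 668820 (4.80 ± 0.21; edgeR, adjusted p = 1.1e-16) and of the amino acid transporters 296817 (3.81 ± 0.22; 1.4e-13), 254728 (3.25 ± 0.24; 5.1e-11), 300838 (3.03 ± 0.31; 2.8e-08) and 188015 (2.60 ± 0.25; 9.4e-09). The oligopeptide transporter 250173 had 1.71 ± 0.25 (9.6e-06). The medians were 0.18 over the amino acid transporters and 0.56 over the oligopeptide transporters. The log2 fold change of 331747, 2.70, lay between those of 300838 and 188015.

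The gene models whose course was most like that of 331747 were ranked by Pearson's r over the 13 group means of log2 CPM (prior count 2), as a description with no test, since the means share libraries and depth. Of 15532 gene models compared, 16 had an r of at least 0.8 and the highest was 0.897. The 10 most alike were 485901, 572598, 295721, 584757, 310515, 304485, 484007, 600053, 453691 and 464089, with r between 0.822 and 0.897, and between 0.452 and 0.798 over the 37 single libraries. Each had its highest mean in EcM at 14 dpi, which follows largely from ranking by likeness to a course with its peak there. The list includes the second Rh-like transporter 484007 (r = 0.84) in the 7th place. Gene model 485901 (r = 0.897) is annotated as a transporter of the Major Facilitator Superfamily, 584757 (r = 0.87) as an acetylglucosaminyltransferase, and 600053 (r = 0.832) as a flavin-containing monooxygenase.

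**Figure D4:**
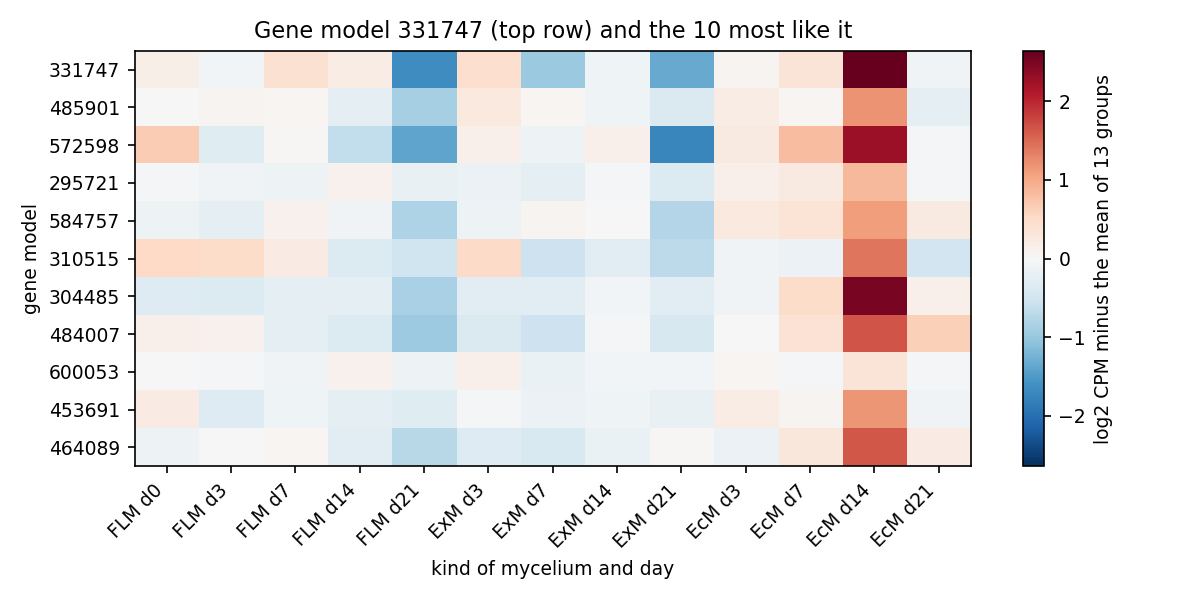
Group means of log2 CPM, each row centred on its mean over the 13 groups (colour, in log2 units), for gene model 331747 (top) and the 10 gene models with the highest r to it, by kind of mycelium and day. The column of EcM at 14 dpi is the highest of every row, at 2.64 for 331747 and 0.35 to 2.5 for the others. The rows were picked by likeness to that of 331747, which favours a peak in this column.

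The 10 differed in how large their rise was. Between EcM and FLM at 14 dpi the log2 fold change was 3.30 for 572598, which had 1.95 against 0.178 CPM, and 2.82 for 304485, which had 22.1 against 3.1 CPM. It was 0.23 for 600053 (11.5 against 9.77 CPM; edgeR, adjusted p = 0.25), whose course is alike in shape and much flatter. Gene model 464089 was scarcer than 331747, at 0.461 CPM in EcM at 14 dpi. Among the listed gene models, 313221 had r = 0.74, the glutamate dehydrogenase 309733 had r = 0.722, and MiSSP17, the hydrophobin and MiSSP8 had r = 0.653, 0.559 and 0.313. The make-up of the 10 depended on the measure, as 6 of them were among the first 10 with a prior count of 0.5 or over the 37 libraries, and 1 with Spearman's rank correlation. With the comparison limited to gene models of a similar highest level, 9 remained, but that set was wide and still held 5101 gene models.

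The level of 331747 can be set beside that of the 4 EcM check genes. Before the peak their summed level in EcM was 2.96 to 5.63 CPM (day 3) and 8.26 to 11.4 CPM (day 7), and on these days, as on the later ones given above, it lay above that of FLM and ExM of the same day. None of the 4 was at 0 throughout a group. All 4 were called higher in EcM than in FLM at 14 dpi and 3 of the 4, all but MiSSP8, at 21 dpi. Calls in either direction made up 6.8% and 5.63% of the tested gene models there. At 3 dpi 2 of the 4, MiSSP17 and 603166, and at 7 dpi 3 of the 4, these and the hydrophobin, were called higher. These comparisons called 1.93% and 3.92% of the tested gene models. On both days the EcM libraries of 331747 overlapped those of FLM. The study describes the 4 genes as induced in EcM from these same libraries, so their counts are not independent evidence. From 14 to 21 dpi in EcM the summed level went from 37.3 to 59.5 CPM down to 15.8 to 35 CPM. In that step 1 of the 4 was called lower, where lower calls made up 1.89% of the tested gene models. Gene model 331747 fell by 3.08 on the log2 scale in the same step. Whether these falls differ in size was not tested. The part that the amount of mature ectomycorrhiza in a sample has in its level was not tested.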

How the data were processed

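Stranded mRNA libraries were sequenced as paired reads. Per the study's methods, the authors trimmed the reads and aligned them to the L. bicolor v2 reference transcripts with CLC Genomics Workbench, with several hits per read allowed. Each deposited table holds raw read counts, which the authors did not normalize, and RPKM values, which the authors computed from them. The headers do not say whether counts are of uniquely placed or of all placed reads. RPKM equalled the counts scaled by the table total and a fixed transcript length. The labels name DESeq2 for the authors' own tests, which were not used here.

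Groups, days and replicate numbers came from the labels, which call the replicates biological and give no batch. No pair of libraries agreed within sampling noise (lowest chi-square per degree of freedom 4.59). Counts were filtered with filterByExpr (minimum count 10, total 15), which left 15533 gene models, scaled with TMM, and tested with edgeR 4.0.16 (glmQLFit with robust estimation) in 1 fit over all 37 libraries. P-values were adjusted over all gene models tested, and the test was tried on simulated data. The tagwise biological coefficient of variation of 331747 was 0.316, against a common 0.142. Alternatives were DESeq2 1.42.0 and limma 3.58.1 on log2(RPKM + 0.1) or log2(RPKM + 0.01), other scaling, no filter, a replicate block and each library left out. Fold changes of low genes on the RPKM scales depend on the pseudocount: the larger one shrinks them, and with the smaller one they can exceed those of edgeR.

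Replicate numbers are shared between groups, and the labels do not say that a number marks a shared plate or day. Deviations of same-numbered libraries correlated over 0.1 in 4 of 34 pairs. Only in EcM against ExM at 21 dpi was every same-numbered pair over 0.1, and there the block gave 1.78 ± 0.80 (edgeR, adjusted p = 0.088). The highest correlation, 0.386, was between EcM replicate 1 and ExM replicate 3 of 7 dpi, where same-numbered pairs had -0.448 to -0.142. Plates shared under different numbers are therefore not covered, and the main tests treat EcM and ExM libraries as independent.

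Gene symbols came from the gene table of assembly V1.0 by locus number (6580 of 23130 gene models matched). That assembly is not the one of the files, so no coordinates are given. No sequence is shown. Named genes were 331747, the measured ammonium transporters, listed nitrogen genes called in EcM against FLM at 14 dpi (at most 4 per list, by size of change) and the 10 gene models of highest r. The gene, lists and tests were chosen with earlier results of these data known.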

Additional observations from a re-analysis of the deposited data

Results flagged for a closer look

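The difference of gene model 331747 between EcM and FLM was itself different between days. The change from 7 to 14 dpi was 2.80 ± 0.67 on the log2 scale (edgeR, adjusted p = 0.0065), since EcM and FLM overlapped at 7 dpi and did not at 14 dpi. The late days together exceeded the early days by 2.32 ± 0.60 (adjusted p = 0.0043). Averaged over the same days, the EcM and ExM difference was larger late than early by 1.93 ± 0.64 (adjusted p = 0.031). This call was not kept in 6 of the 23 fits without 1 library. The late averages include 21 dpi, when the EcM mean was below those of 3 and 7 dpi. Groups of 2 or 3 libraries are too small for a test of single outlying libraries.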

How the results depend on the processing

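The rise of 331747 in EcM at 14 dpi kept its direction and its call against FLM (log2 fold changes of 2.26 to 2.74 over 9 other settings and 2.29 to 3.02 without single libraries), against ExM (2.61 to 3.02, and 2.42 to 3.90) and against EcM of 7 dpi (2.24 to 2.57, and 2.14 to 2.87). The fall to 21 dpi in EcM kept its call in the 7 settings that gave an adjusted p and without each library (-3.40 to -2.67), and DESeq2 gave -3.12 with an adjusted p of NA, as it did in 5 other comparisons. At 21 dpi, EcM against FLM passed with DESeq2 (2.07, adjusted p = 0.038) and limma (1.24 and 2.63, adjusted p = 0.03 and 0.0069, with the larger and smaller pseudocount). ExM from 3 to 7 dpi passed with DESeq2 (-1.54, adjusted p = 0.038) and with limma and the larger pseudocount (-1.31, adjusted p = 0.036). With the smaller pseudocount the EcM difference of 14 minus 7 dpi (2.68, adjusted p = 0.12) and of EcM against ExM late minus early (1.59, adjusted p = 0.14) did not pass, and that of 21 minus 14 dpi turned to 0.16. Why these settings differ was not tested.

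Without single libraries, the ranges were -0.12 to 0.42 for EcM against FLM at 3 dpi (-0.04 without FLM replicate 1), -0.32 to 0.20 at 7 dpi (0 without EcM replicate 1) and 1.5 to 3.52 at 21 dpi, -1.20 to 0.29 for ExM against FLM at 14 dpi and -0.32 to 1.74 at 21 dpi (-0.28 without FLM replicate 1, -0.09 without FLM replicate 3), -2.57 to -1.10 for ExM from 3 to 7 dpi, -0.04 to 1.98 from 7 to 14 dpi, -1.02 to 0.74 for FLM from 0 to 3 dpi, -0.48 to 0.04 from 7 to 14 dpi, -3.90 to -1.87 from 14 to 21 dpi, -1.20 to 0.82 for the EcM difference of 21 minus 14 dpi, and 1.38 to 2.40 for EcM against ExM late minus early. The last lost its call without EcM replicate 2 of 14 dpi, EcM replicate 1 of 21 dpi, or ExM replicate 3 of 3, 7 or 21 dpi or replicate 2 of 14 dpi.

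Only 1 of 10 comparisons of 3 against 3 libraries had every library correlate best with its own number. With a replicate block the rise against FLM at 14 dpi was 2.68 ± 0.45 (adjusted p = 3.6e-05), no call of 331747 changed, and the calls over all gene models went from 1057 to 1045 there. Scaling by library totals moved the median of all gene models by up to -0.22 (EcM against ExM, 21 dpi) and turned the signs of LbAMT1.1b (-0.08) and LbAMT2.1 (-0.03). For 20 other named gene models, tried after the data were seen, 198 of 200 values kept the call and direction. Of the 10 most alike gene models, 6 were shared with a prior count of 0.5, 6 over the 37 libraries and 1 with Spearman's rho. Low counts limit all values at 21 dpi and in ExM at 7 dpi, where libraries held 0 to 12 counts. They limit the other comparisons too: no library outside EcM at 14 dpi held more than 20 counts, and ExM at 14 dpi held 11 and 4.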

Other observations

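Gene model 331747 also took a varying share of the transcripts of its family. Of the summed RPKM of the 7 measured ammonium transporters it made up 1.28% ± 0.497 (SD, n = 3) in EcM at 14 dpi, 0.447% ± 0.0835 (n = 3) in FLM at 14 dpi and 0.218% ± 0.0448 (n = 3) in EcM at 21 dpi. The family as a whole was at 198 RPKM in EcM at 14 dpi and 95.3 RPKM in FLM at 14 dpi (means). In EcM at 14 dpi, 313221 made up 29.3% ± 4.98, LbAMT1.1a 30.6% ± 4.27 and LbAMT1.2 25.4% ± 0.797 of it. In FLM at 14 dpi, 313221 made up 3.16% ± 0.30 and LbAMT1.1a 56.8% ± 1.67. These shares are given as values, with no test.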
